A study of Homo sapiens with 16 samples.

Results

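The genes described here are the chromosome 22q13 neighbours of PNPLA3 given by a list of 7 symbols: SAMM50, PARVB, TSPO, TTLL1, TTLL12, MCAT and NUP50. The list was chosen with earlier results of these data known, and its genes were taken from the deposited expression table by symbol. Of the 7, 6 were read there, among 16558 genes, and all 6 entered the tests, which took the 13095 genes averaging 1 unit or more. PARVB is not analysed here beyond its position and its partner genes. The RNA came from HepG2, an established human hepatoma line, in which the site of the I148M change of PNPLA3 had been edited to the genotype GG, GC or CC. The labels number 3 GG lines (1, 2 and 6), 3 GC lines (2, 3 and 4) and 2 CC lines (1 and 3). They are called clones below and written GG1 to CC3; the labels do not say how each was derived. Every clone gave 1 control library and 1 library after 250 µM palmitic acid, a saturated fatty acid, for 48 h by the protocol, which makes 16 libraries of bulk RNA with n counting clones. The series' design text describes all 3 genotypes as edited, the labels of the single lines do not, and no parent line was used here. In bulk RNA, fewer cells with a transcript and less transcript per cell cannot be told apart. The p-values for genotypes, and those for palmitic acid without a clone term, rest on the spread of levels between these clones. Those for clones, and those for palmitic acid with the clone as a block, rest on how the paired changes of these clones vary.

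PNPLA3 encodes a lipid-droplet protein of hepatocytes, and its I148M form is the best known inherited contributor to fatty liver. The block of chromosome 22 around it is often inherited together, so that SAMM50 and PARVB also come up in genetic studies of liver fat. SAMM50 is the core of the machinery that folds barrel proteins into the mitochondrial outer membrane, and TSPO is an outer-membrane protein that binds cholesterol and porphyrins. MCAT loads malonyl groups for fatty acid synthesis inside mitochondria. TTLL1 and TTLL12 belong to the family of tubulin tyrosine ligase-like proteins; TTLL1 is the catalytic part of a tubulin polyglutamylase. NUP50 is a mobile protein of the nuclear pore basket that aids importin-driven transport. PARVB, also called beta-parvin, binds integrin-linked kinase at focal adhesions.

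On GRCh38, the build of the deposited values, 4 of the genes sit close together on the centromeric side of PNPLA3. TTLL1 (ENSG00000100271.16) lies at chr22:43039644-43089428 on the minus strand and MCAT (ENSG00000100294.12) at chr22:43132206-43143394, also on the minus strand. TSPO (ENSG00000100300.17) lies at chr22:43151514-43163242 on the plus strand, 8.12 kb past MCAT and 3.38 kb before TTLL12 (ENSG00000100304.12), which lies at chr22:43166622-43187133 on the minus strand. This group of 4 spans 147 kb and ends 737 kb before PNPLA3 (ENSG00000100344.10, chr22:43923739-43964488, plus strand). SAMM50 (ENSG00000100347.14, chr22:43955421-44010531, plus strand) starts inside the annotated body of PNPLA3 and overlaps it by 9068 bases, of which 148 are exonic in both genes. Those bases are 2.30% of the exon length of SAMM50 and 4.58% of that of PNPLA3, and both genes are on one strand, so reads there cannot be assigned to either gene with certainty. PARVB (ENSG00000188677.14, chr22:43999211-44172949, plus strand) overlaps the end of SAMM50, and NUP50 (ENSG00000093000.18, chr22:45163841-45188015, plus strand) lies 1199 kb beyond PNPLA3. TTLL1 shares 262 exon bases, 15.0% of its exon length, with the opposite-strand gene AL022476.1, and no source used here says whether the counting used strand.

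The promoters of 2 members are shown, because TSPO was the member that differed most between clones and changed with palmitic acid, and because SAMM50 starts inside PNPLA3. Each runs from 250 bases before to 50 bases after a RefSeq transcription start on GRCh38.p14, is written 5′ to 3′ on the gene's plus strand, and has matches to the GC box (GGGCGG, either strand) and the CCAAT box (CCAAT, either strand) in capitals. Adjoining capitals can hold overlapping matches. The TSPO window is chr22:43151309-43151608 and the SAMM50 window is chr22:43955192-43955491.
TSPO: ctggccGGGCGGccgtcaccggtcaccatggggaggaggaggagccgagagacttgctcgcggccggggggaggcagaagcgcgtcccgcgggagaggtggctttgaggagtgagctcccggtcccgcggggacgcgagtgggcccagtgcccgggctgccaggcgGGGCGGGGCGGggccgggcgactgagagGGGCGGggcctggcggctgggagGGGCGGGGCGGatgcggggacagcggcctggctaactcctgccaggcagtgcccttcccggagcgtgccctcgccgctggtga
SAMM50: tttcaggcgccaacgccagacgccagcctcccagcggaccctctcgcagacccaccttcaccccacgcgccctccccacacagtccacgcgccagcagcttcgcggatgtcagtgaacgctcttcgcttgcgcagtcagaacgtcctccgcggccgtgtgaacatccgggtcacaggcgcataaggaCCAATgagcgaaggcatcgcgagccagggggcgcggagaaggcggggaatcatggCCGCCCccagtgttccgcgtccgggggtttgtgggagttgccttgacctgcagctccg
The TSPO window is 77.0% G or C and holds 6 GC boxes and no CCAAT box. TSPO has 2 further windows in the table, at later starts, with 1 GC box each and 72.0% and 72.3% G or C; the one shown is the most upstream. The SAMM50 window is 66.7% G or C and holds 1 GC box, on the opposite strand, and 1 CCAAT box. Of 35116 promoter windows of the same length in the RefSeq table, 45.0% hold a GC box and 34.6% a CCAAT box, and the median G or C content is 58.7%. All 7 members had at least 1 window, with 12 windows in all; the TTLL12 window held 17 GC boxes at 88.0% G or C. A match in these letters is a description and does not show that a factor binds there.

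Levels are given in the authors' units, which are read counts brought to a common library size with edgeR's TMM scaling. The 16 libraries held 9314342 to 15777669 reads. The 12 hepatocyte markers examined were all present, with summed levels of 21897 to 52183 units in control and 16482 to 40177 units in treated libraries. Of 8 leukocyte markers 4 were present, CD14, CD68, LYZ and CSF1R, with summed levels of 392 to 914 units in control and 399 to 1060 units in treated libraries. Endothelial, stellate and biliary lists had 4 of 6, 5 of 8 and 4 of 6 markers present, with sums of 9.44 to 33.7, 36.3 to 121 and 289 to 419 units over all libraries. For every list the control and treated ranges overlapped, and the part of these genes in the results below was not tested. One library pair stood apart: across all tested genes the log2 changes with palmitic acid had an SD of 0.567 in CC3 and of 0.311 to 0.404 in the other 7 clones. The treated CC3 library also had the fewest recovered reads, 9314342, and the fewest genes detected, 15662. The part of depth in that SD was not tested.

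Per kilobase of annotated exon, TTLL12 and NUP50 had the highest mean levels, at 17.7 and 17.6 units per kb. TSPO followed at 9.34, SAMM50 at 7.22 and MCAT at 5.64 units per kb, while PNPLA3 stood at 2.37 and TTLL1 at 1.82 units per kb. Ranges over the 16 libraries overlapped between every pair of neighbours in this order. The widest was that of TSPO, from 0.391 to 19.7 units per kb, and that of SAMM50 ran only from 5.13 to 9.63 units per kb. TTLL1 rested on 20 to 61 reads per library, so that its single values carry a large counting error; in GG2 control, 23 reads gave 1.82 units with an exact 95% Poisson interval of 1.15 to 2.73 units. Such intervals cover counting error only.

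**Figure D1:**
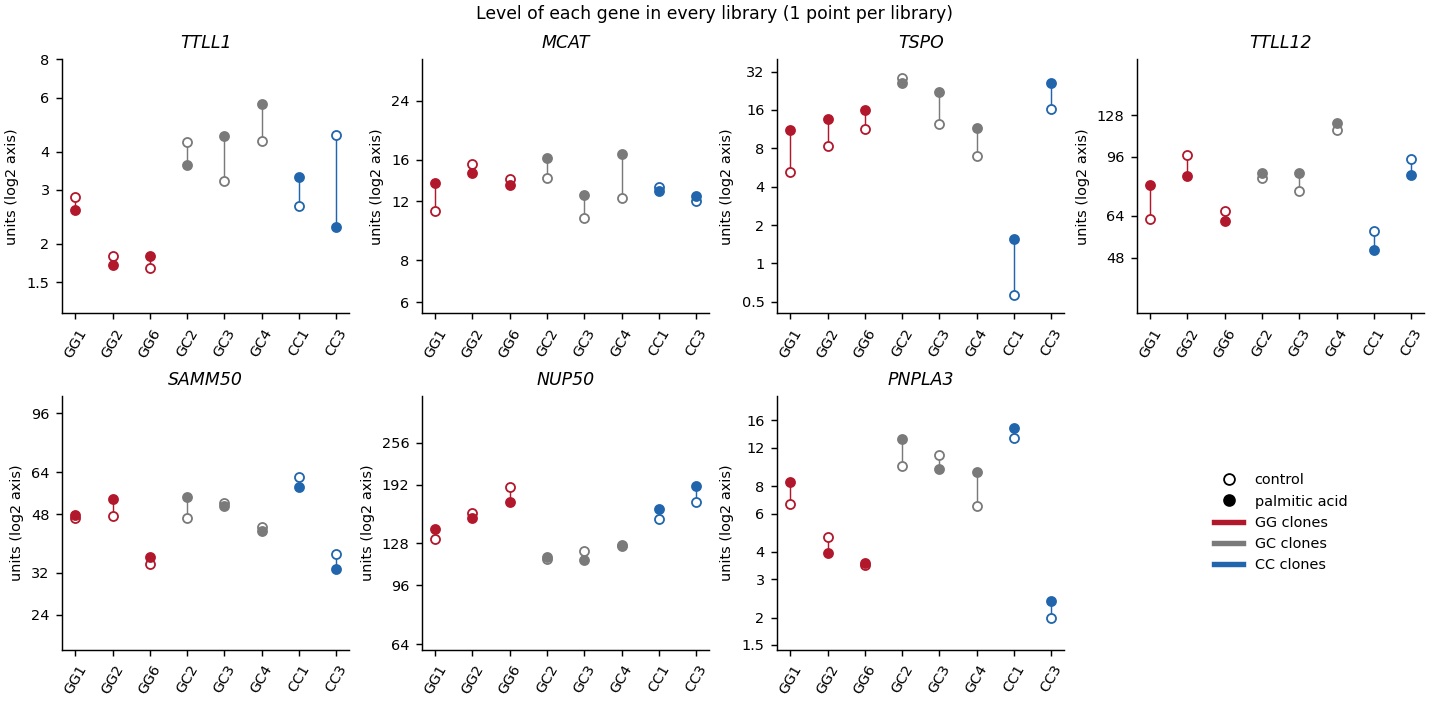
Level of each gene in every library, in units on a log2 axis, with 1 panel per gene; open circles are control and filled circles palmitic acid libraries, joined within a clone. TSPO is near the floor in CC1 and highest in GC2, while MCAT stays between 10.7 and 16.6 units in all libraries.

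SAMM50, the outer-membrane assembly protein, varied between clones and hardly with palmitic acid. Its control levels were 46.8, 47.3 and 34.1 units in GG1, GG2 and GG6, 46.6, 51.7 and 43.9 units in GC2, GC3 and GC4, and 62.0 and 36.4 units in CC1 and CC3. After palmitic acid they were 47.8, 53.1 and 35.6 units in the GG clones, 54.0, 50.6 and 42.7 units in the GC clones, and 58.0 and 33.0 units in the CC clones. In the mean of both libraries CC1 was the highest clone, and CC3 (34.7 units) and GG6 (34.9 units) were the lowest, nearly alike. The 3 genotypes overlapped. CC1 exceeded CC3 by 1.73-fold in the mean of its libraries.

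TSPO, the cholesterol- and porphyrin-binding protein of the same membrane, had the widest spread of any member. Control levels were 5.19, 8.32 and 11.4 units in GG1, GG2 and GG6, 28.6, 12.3 and 6.92 units in GC2, GC3 and GC4, and 0.569 and 16.2 units in CC1 and CC3. With palmitic acid they were 11.1, 13.7 and 16.1 units in the GG clones, 25.8, 22.2 and 11.6 units in the GC clones, and 1.55 and 25.8 units in the CC clones. CC1 was low in both of its libraries, and GC2 was high in both. In CC1 control 9 reads gave 0.569 units (exact 95% Poisson interval 0.260 to 1.08 units), and after palmitic acid 22 reads gave 1.55 units (0.970 to 2.34 units). The mean of the GC2 libraries was 25.7-fold that of CC1, and the other CC clone was above all 3 GG clones.

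MCAT, the mitochondrial malonyl transferase, was the steadiest member. Control levels were 11.2, 15.5 and 14.0 units in the GG clones, 14.1, 10.7 and 12.3 units in the GC clones, and 13.3 and 12.0 units in the CC clones, in the order used above. Treated libraries had 13.6, 14.6 and 13.4 units in the GG clones, 16.2, 12.5 and 16.6 units in the GC clones, and 12.9 and 12.5 units in the CC clones. All genotypes overlapped, and the highest clone mean was 1.304-fold the lowest.

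TTLL1, the polyglutamylase subunit, was lowest in the GG clones. Control levels were 2.84, 1.82 and 1.66 units in GG1, GG2 and GG6, 4.30, 3.22 and 4.35 units in GC2, GC3 and GC4, and 2.66 and 4.55 units in CC1 and CC3. Treated libraries had 2.59, 1.71 and 1.83 units in the GG clones, 3.61, 4.50 and 5.72 units in the GC clones, and 3.31 and 2.28 units in the CC clones. Every GC library was above every GG library, and the CC libraries overlapped both genotypes. The highest clone mean, in GC4, was 2.88-fold the lowest, in GG6.

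TTLL12, a more distant member of the same family, was highest in GC4. Its control levels were 62.7, 97.0 and 66.2 units in the GG clones, 83.1, 76.0 and 116 units in the GC clones, and 57.8 and 94.6 units in the CC clones. After treatment these were 79.1, 84.2 and 61.7 units, 85.8, 85.6 and 122 units, and 50.7 and 84.6 units. CC1 was the lowest clone, as it was for TSPO, and GC4 was 2.19-fold above it.

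NUP50, the nuclear basket protein, was lowest in the 3 GC clones. Control levels were 132, 158 and 189 units in the GG clones, 115, 121 and 126 units in the GC clones, and 152 and 170 units in the CC clones. Treated libraries had 141, 153 and 171 units in the GG clones, 117, 114 and 127 units in the GC clones, and 163 and 190 units in the CC clones. Every GC library lay below every GG and every CC library. The highest clone mean was 1.56-fold the lowest.

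The first comparison asked whether the clones of one genotype differed by more than the libraries of 1 clone did. It used limma's moderated F test with 5 and 5 degrees of freedom before moderation, adjusted by the Benjamini-Hochberg method over all 13095 genes. TSPO (F = 67.7, adjusted p = 4.70e-06), SAMM50 (F = 18.4, adjusted p = 3.06e-04) and TTLL12 (F = 15.5, adjusted p = 5.48e-04) differed between clones of a genotype. Their F values moved with single clones and stayed called. F for TSPO was 122 without GC2, and F for TTLL12 was 31.8 without GG1. Leaving out CC1 or CC3 takes the CC pair out of this test, so that only GG and GC clones are compared. Without CC1 and without CC3, F was then 15.9 and 14.6 for TSPO, and 8.93 and 9.13 for SAMM50. NUP50 also passed (F = 5.10, adjusted p = 0.0195), but without GG1 or without GG6 its adjusted p was 0.10 or 0.125. MCAT (adjusted p = 0.145) and TTLL1 (adjusted p = 0.363) did not pass. These 4 of 6 members compare with 68.8% of all tested genes, so differing between clones was the common state of genes in these lines. TSPO differed in size: the SD of its 8 clone means on the log2(units + 0.5) scale was 1.296, against a median of 0.27 over all tested genes, and 1.34% of tested genes had a larger one. That size rested on CC1: without it, a choice made after the data were seen, the SD was 0.63, still the largest of the 6 members, and 9.79% of tested genes had a larger one. The SD was 0.27 for SAMM50, 0.34 for TTLL12, 0.46 for TTLL1, 0.25 for NUP50 and 0.14 for MCAT, which ranked at the 9.93 percentile.

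The sum of squares of each gene on the same log2 scale was split between genotype, clone within genotype, treatment, their interaction and the rest. Clone within genotype took 89.7% for SAMM50, 68.7% for TSPO, 64.0% for TTLL12 and 53.5% for MCAT, and the median over tested genes was 56.8%. Genotype took 73.7% for NUP50 and 68.6% for TTLL1, against a median of 16.8%. Palmitic acid took 13.0% for MCAT, 6.53% for TSPO and at most 0.160% for each of the other 4 members, against a median of 4.29%. The parts have 2 degrees of freedom for genotype, 5 for clone and 1 for treatment, so the shares describe these 16 libraries and are not a test.

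The second comparison set the genotypes against each other, with 1 mean of log2 values per clone and limma over all genes. No member passed the adjusted threshold of 0.05 in any of the 3 pairs, and neither did any other gene: the share of tested genes called was 0% in each pair, and edgeR on the recovered reads also called 0 genes. In GG minus GC the largest difference among the members was that of TTLL1, which was lower in GG by a log2 difference of -0.90 ± 0.23 (SE, n = 3 and 3 clones; limma, unadjusted p = 0.00475, adjusted p = 0.847). NUP50 was higher in GG than in GC by 0.38 ± 0.14 (limma, unadjusted p = 0.0253, adjusted p = 0.847). At an unadjusted p under 0.05, 722 genes, or 5.51%, were counted in this pair. Clone means did not overlap for TTLL1 and NUP50, which is 2 of 6 members, and for 12.5% of all tested genes.

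Against CC, TTLL1 was lower in GG by a log2 difference of -0.51 ± 0.26 (n = 3 and 2 clones; limma, adjusted p = 1.00), and its clone means did not overlap, as for 8.32% of tested genes. At an unadjusted p under 0.05, 101 genes, or 0.771%, were counted in GG minus CC, and none of the 6 members was among them. Between GC and CC, NUP50 was lower in GC by -0.49 ± 0.16 (limma, unadjusted p = 0.0140, adjusted p = 0.901), where 534 genes, or 4.08%, had an unadjusted p under 0.05. Clone means of GC and CC did not overlap for NUP50 and TTLL1, whose difference was 0.39 ± 0.26, and for 25.7% of tested genes. By clone means, then, NUP50 was lowest and TTLL1 highest in the GC clones, and neither gene passed the test over all genes. For TTLL1 the GG and CC clone means were apart as well, and its GC and CC libraries overlapped. With 25.7% of tested genes apart between GC and CC, such a split was common.

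TSPO had the largest estimates in the pairs with CC, and they rested on single clones. GG minus CC was 0.96 ± 0.97 and GC minus CC was 1.57 ± 0.97 on the log2 scale, while GG minus GC was -0.60 ± 0.87. Without CC1 the first 2 became -0.95 and -0.35, and without CC3 they became 2.87 and 3.48. edgeR, which weighs counts rather than log values, gave 0.04 and 0.75. The genotype differences of SAMM50 and MCAT were at most 0.14 in size with SEs of 0.17 to 0.26, and those of TTLL12 were -0.33 ± 0.24, 0.09 ± 0.27 and 0.42 ± 0.27 for GG minus GC, GG minus CC and GC minus CC. With 1 clone left out, TTLL12 ran from -0.469 to -0.154 in the first of these pairs and from 0.0568 to 0.778 in the last.

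**Figure D2:**
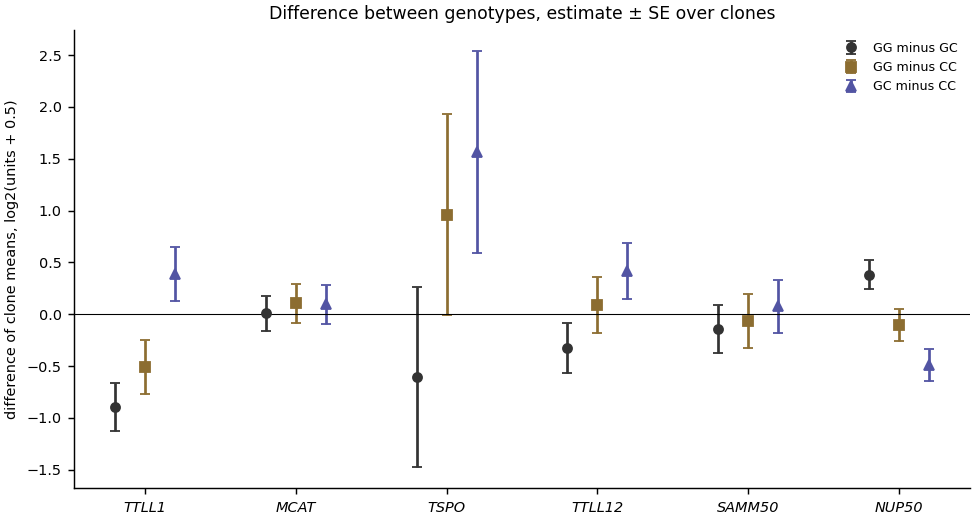
Difference between genotypes for each member, as the estimate with its SE over clone means on the log2(units + 0.5) scale (3 GG, 3 GC and 2 CC clones). TTLL1 and NUP50 lie apart from 0 in opposite directions for GG minus GC, and TSPO has the widest errors.

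The third comparison asked what palmitic acid did. TSPO was the one member with a change that passed a test: it rose in 7 of 8 clones, by a log2 change of 0.66 ± 0.12 (SE, clone as a block; limma, adjusted p = 0.00344). By clone the changes were 1.03, 0.68 and 0.48 in GG1, GG2 and GG6, -0.15, 0.82 and 0.71 in GC2, GC3 and GC4, and 0.94 and 0.66 in CC1 and CC3. GC2, which had the highest control level, was the clone without a rise, and 16.6% of all tested genes were higher in at least 7 clones. With the block, 9.33% of tested genes were called upward and 18.9% in either direction, so 1 called member of 6 says nothing particular about the group. The fit without the block, which sets treated clones against control clones, gave the same 0.66 with an SE of 0.60 (limma, adjusted p = 0.837). In that fit 6 genes, or 0.0458%, were called, with 0 of 6 members at an adjusted or an unadjusted p under 0.05, and 0 members by edgeR or DESeq2. With the block, leaving out 1 clone at a time kept TSPO between 0.60 and 0.77 with adjusted p from 0.00155 to 0.0136, and without CC3 it was 0.71 (limma, adjusted p = 0.00846). Without the block the estimate moved far with CC1 and CC3, from 0.0032 without the CC1 control to 1.32 without the CC3 control.

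The other 5 members had small mean changes with mixed directions. MCAT changed by 0.11 ± 0.07 on the log2 scale (clone as a block; limma, adjusted p = 0.332) and was higher in 5 of 8 clones, with the largest value of 0.42 in GC4. NUP50 had 0.03 ± 0.05 (5 of 8 clones higher) and SAMM50 0.01 ± 0.05 (4 of 8). TTLL12 had -0.02 ± 0.06 and TTLL1 -0.05 ± 0.14, each with 4 of 8 clones higher. The SEs limit what could be seen: they were smallest for NUP50 and SAMM50 and largest for TTLL1. The TTLL1 value rested on CC3, where it changed by -0.86; without CC3 it was 0.14 (limma, adjusted p = 0.582).

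**Figure D3:**
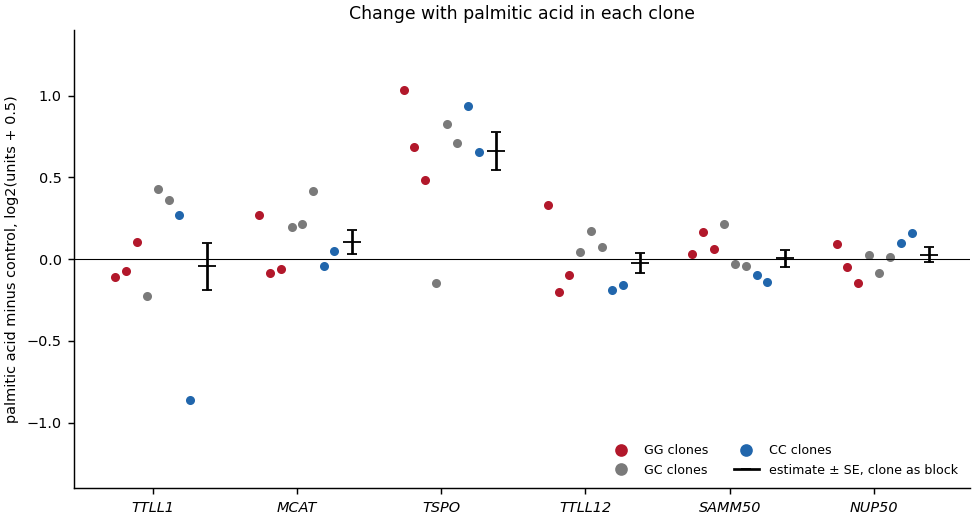
Palmitic acid minus control for each member, in log2(units + 0.5), with 1 point per clone coloured by genotype and the estimate ± SE from the fit with the clone as a block. All TSPO points but that of GC2 lie between 0.48 and 1.03, while the points of the other members scatter around 0.

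The palmitic acid change was also compared between genotypes, as an interaction. For TSPO the mean changes were 0.73 in GG, 0.46 in GC and 0.80 in CC clones on the log2 scale, and the F test gave an adjusted p of 1.00 (limma; 0.998 with the clone as a block). None of the 6 members passed; the smallest unadjusted p was 0.511, for MCAT, and 0.263 with the block, for TTLL12. Over all tested genes 1, or 0.00764%, passed, and edgeR and DESeq2 called 0. A difference between genotypes in the rise of TSPO was not detected.

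PNPLA3 itself served as the reference for its neighbours. Its control levels were 6.64, 4.67 and 3.47 units in GG1, GG2 and GG6, 9.88, 11.2 and 6.52 units in GC2, GC3 and GC4, and 13.3 and 1.99 units in CC1 and CC3. Treated libraries had 8.39, 3.94 and 3.56 units in the GG clones, 13.1, 9.55 and 9.29 units in the GC clones, and 14.8 and 2.39 units in the CC clones. The CC clones held the highest and the lowest clone means, 6.42-fold apart. A level says nothing of the base at the edited site, so these values do not check the genotype labels.

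SAMM50 was the member that followed PNPLA3 across clones. Over 8 clone means, Pearson's r was 0.852 (exact permutation p = 0.00719, adjusted over all genes 0.333) and Spearman's rho was 0.881 (exact permutation p = 0.00724, adjusted 0.489), both two-sided. Without CC3 and GG6, the clones farthest from the PNPLA3 median, r fell to 0.525. Both have the lowest PNPLA3 means, and the narrower range left can by itself lower r, so this fall does not show what the relation rests on. Of all tested genes 1.19% had a higher r with PNPLA3, and 0 genes passed the adjusted threshold. The shared exon bases of the overlapping genes can add to this r, and their part was not tested. NUP50 ran the other way, with r = -0.732 (exact permutation p = 0.0458, adjusted 0.394), rho = -0.643 (exact permutation p = 0.0962, adjusted 0.583) and r = -0.302 without those clones. Values of r were 0.477 for TTLL1, -0.434 for TSPO, -0.235 for TTLL12 and 0.025 for MCAT, with adjusted exact permutation p from 0.582 to 0.985. The corresponding rho values were 0.476, -0.238, -0.286 and 0.167, and without CC3 and GG6 the r values were 0.567, -0.291, -0.523 and -0.35.

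**Figure D4:**
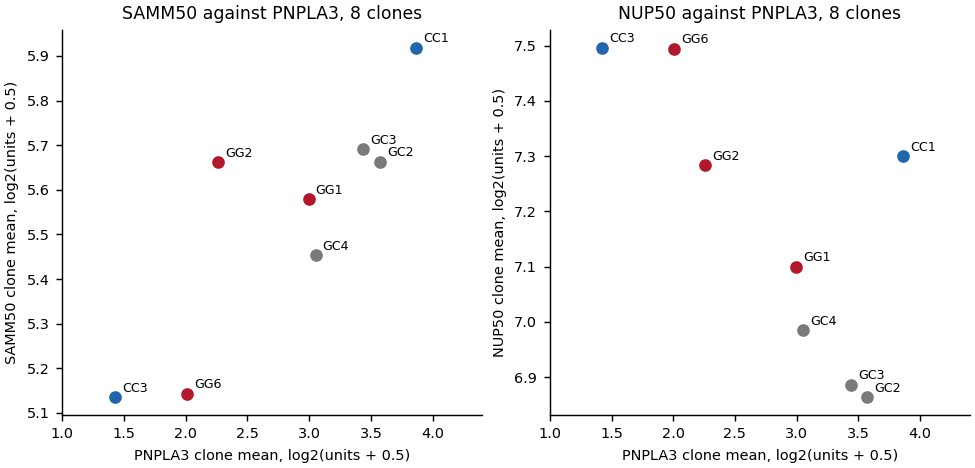
Clone means of SAMM50 (left) and NUP50 (right) against those of PNPLA3, in log2(units + 0.5), with 1 point per clone coloured by genotype. SAMM50 rises with PNPLA3 from CC3 and GG6 to CC1, and NUP50 falls from CC3 to GC2 with CC1 off the line.

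Likeness between the members was mixed. Over the 16 libraries, in which the libraries of a clone are not independent, r between log2 levels was 0.514 for TSPO and TTLL12, 3.38 kb apart, and 0.166 for TSPO and MCAT, 8.12 kb apart. TTLL12 had 0.457 with TTLL1 and 0.329 with MCAT, and SAMM50 had 0.818 with PNPLA3, which it overlaps. It was -0.650 for TTLL1 and NUP50 and -0.536 for SAMM50 and NUP50. The genes most like each member by this measure lay on other chromosomes, and r describes these libraries only. For SAMM50 they were RBM14 (r = 0.974, chromosome 11) and LMAN2 (r = 0.945, chromosome 5), and PNPLA3 ranked 178. TSPO was most like FERMT1 and AHR (both r = 0.896). For TTLL1 they were SLC2A4 (r = 0.920) and MTFMT (r = 0.917), and for TTLL12 they were DENND1A (r = 0.917) and PINK1 (r = 0.895). MCAT was most like FBXO34 (r = 0.869) and C19orf24 (r = 0.839), and NUP50 was most like ZC3H18 (r = 0.942) and MDM2 (r = 0.929). PNPLA3 had LSS (r = 0.925) and ACAT2 (r = 0.919) ahead of SAMM50 at rank 33.

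Within 2 Mb on each side of PNPLA3 the annotation places 116 genes, of which 36 were in the table and 27 were tested. Beside the 6 members and PNPLA3 these were 20 other genes. Of the 20, 15 (75.0%) differed between clones of a genotype, against 68.8% of all tested genes and 72.5% of the 313 tested genes of chromosome 22. With the clone as a block 1 of the 20 rose with palmitic acid, ARFGAP3, a regulator of Golgi transport, by a log2 change of 0.20 ± 0.06 (limma, adjusted p = 0.0402, 7 of 8 clones). The pseudogene CYP2D7 fell by 0.75 ± 0.23 on the log2 scale (limma, adjusted p = 0.0425) from a mean of only 1.06 units, and it shares sequence with other CYP2D genes. Neither passed without the block. Between genotypes 0 of the 20 were called, as was the case for every tested gene, which does not show that their levels were equal. The median deviation of these 20 genes from their mean over clones lay between -0.13 in CC3 and 0.08 in GC4 on the log2 scale, with single genes far to either side. The clearest clone differences among them were those of FBLN1, an extracellular matrix protein (F = 32.5, limma adjusted p = 4.78e-05), RRP7A (F = 20.8, 2.05e-04), TCF20 (F = 19.1, 2.73e-04) and KIAA0930 (F = 17.0, 4.04e-04). The 18 protein-coding genes of the 20 averaged 1.19 to 164 units, with SDs of clone means from 0.11 to 0.91. The highest was that of UPK3A, which was below the 1.296 of TSPO, but without CC1 UPK3A had 0.98 and TSPO 0.63.

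**Figure D5:**
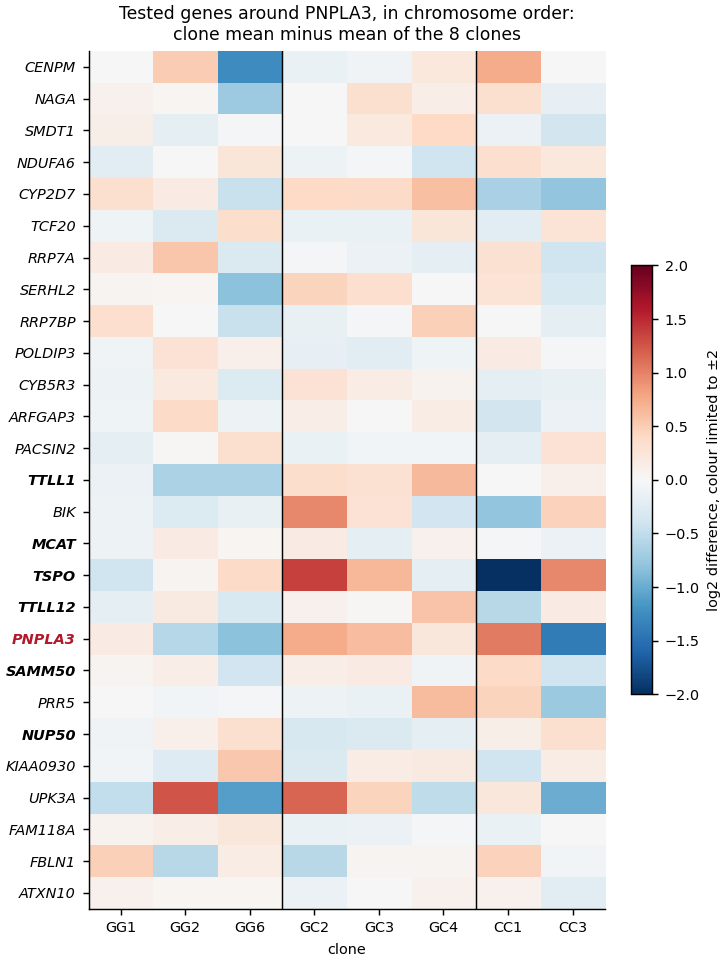
Clone mean minus the mean of the 8 clones for the 27 tested genes around PNPLA3, in log2(units + 0.5), with genes in chromosome order from top to bottom and clones in columns; members are in bold and PNPLA3 in red. TSPO in CC1 is the darkest field, its neighbours MCAT and TTLL12 are paler there, and no clone is coloured alike from top to bottom.

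The wider pathways of the members were read from 6 lists of partner genes with 129 tested entries. None of these partners was called in the fit without the block or between genotypes by limma, so the counts below are from the fit with the clone as a block, set against 9.33% of tested genes called upward and 18.9% either way. The SAMM50 list holds subunits of the outer-membrane sorting and import machineries and of the cristae organizing complex, but also genes such as VDAC1, VDAC2, VDAC3, RHOT2 and TOMM34. VDAC1 and VDAC2 are in the TSPO list as well. The 23 tested partners of SAMM50 had a median log2 change of 0.06, against -0.01 over all tested genes. One of them changed, ARMC1, which fell by 0.18 ± 0.06 on the log2 scale (limma, adjusted p = 0.0481). Of 22 tested TSPO partners 1 rose and 2 fell, with a median of -0.01. STAR, which delivers cholesterol to mitochondria, fell by 0.85 ± 0.11 on the log2 scale (limma, adjusted p = 6.18e-04) and was lower in 8 of 8 clones. PRKAR1A, a regulatory subunit of protein kinase A, fell by 0.45 ± 0.09 (limma, adjusted p = 0.00698), and STARD4, a soluble cholesterol carrier, rose by 0.35 ± 0.10 (limma, adjusted p = 0.0296). These 3 called genes of 22 are a smaller share than the 18.9% over all tested genes.

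For MCAT, 0 of 15 tested genes of mitochondrial fatty acid synthesis and lipoylation passed, and the smallest p was that of CBR4, a reductase subunit of that pathway, at -0.16 ± 0.06 (limma, adjusted p = 0.0760, unadjusted p = 0.0183). Of 14 tested genes of tubulin ligation and deglutamylation, 0 rose and 2 fell, a smaller share than the 18.9% over all tested genes. Both are deglutamylases, but the deglutamylases AGTPBP1 (-0.11 ± 0.07, limma adjusted p = 0.288) and AGBL2 (-0.07 ± 0.15, limma adjusted p = 0.779) were not called. AGBL5 fell by 0.36 ± 0.05 (limma, adjusted p = 0.00151) and AGBL4 fell by 0.68 ± 0.16 (limma, adjusted p = 0.0149) on the log2 scale, the latter from a mean of 2.02 units. In the NUP50 list 1 of 36 nuclear pore and importin genes fell, NUP210, a pore membrane protein, by 0.29 ± 0.05 (limma, adjusted p = 0.00442), and the list's median was -0.01.

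The list around PARVB held the most calls of the 6. The lists were chosen with earlier results of these data known, so this count is a description only. PARVB itself was not analysed, and its list says nothing of its level. Of its 19 tested genes of integrin-linked kinase and focal adhesions 9 rose and 1 fell with palmitic acid, with a median log2 change of 0.29. ZYX, zyxin, rose by 0.65 ± 0.05 (limma, adjusted p = 8.56e-05) from a control mean of 46.7 to 73.0 units. ACTN1, an actin crosslinker, rose by 0.44 ± 0.07 (limma, adjusted p = 0.00200) and PXN, paxillin, by 0.31 ± 0.05 (limma, adjusted p = 0.00312). Each of the 3 was higher in 8 of 8 clones. PARVA, the close relative of PARVB, had 0.10 ± 0.08 (limma, adjusted p = 0.394), and ILK, the kinase-like partner of both, had 0.29 ± 0.09 (limma, adjusted p = 0.0447). ILK and PARVA were chosen for naming after their values were seen.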

How the data were processed

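Total RNA of the 16 libraries was depleted of ribosomal RNA and made into directional libraries, per the labels' protocols. Trimmomatic 0.38 and RSEM 1.3.0 are named in the submitters' processing notes, along with Bowtie2, edgeR and hg38. No source used here gives the annotation, the strand setting or the gene filter. The authors deposited 1 table of normalized signal covering 16558 genes. Dividing a library by its smallest step gave whole reads for 100% of values (tolerance 0.01 reads), totals of the columns lay between 961492 and 1052700, and recomputing the TMM factors left differences of at most 2.22e-16. The deposited signal is thus a count scaled by TMM to a common library size. Of its columns 0 were left unmapped.

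Values were analysed as log2(units + 0.5) for genes averaging 1 unit or more. Tests were two-sided, by limma with a mean-variance trend, with Benjamini-Hochberg adjustment over 13095 genes: 6 groups (10 residual degrees of freedom) for palmitic acid, clone means (5) for genotypes, and a clone term (5) for clones. The planned second fit takes the clone as a block. Control and treated libraries of a number carry the same line's name, which is where the pairing comes from; their deviations from the group means correlated at 0.523 to 0.857 in the 6 GG and GC clones, each most like its own partner, while the 2 CC clones mirror each other and give 1 value, 0.744. Correlations with PNPLA3 used all 40320 pairings of 8 clones. Alternatives were other offsets, filters and scalings, recovered reads in edgeR and DESeq2, and libraries or clones left out. Scripts were tested on simulated data. Versions were limma 3.58.1, DESeq2 1.42.0 and edgeR 4.0.16, run in R 4.3.3.

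The members and lists were chosen with earlier results of these data known. Named genes are the members and the 2 protein-coding genes most like each over 16 libraries. Also named are up to 3 called genes per partner list (or the 1 of smallest p), and called genes within 2 Mb. Positions are from GENCODE on GRCh38, which placed 92.3% of genes by a unique symbol, and promoters from RefSeq on GRCh38.p14. The labels of single treated libraries give 48 to 55 h in sample order while the protocol gives 48 h; the protocol was taken, and the hours entered no comparison.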

Additional observations from a re-analysis of the deposited data

Results flagged for a closer look

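The palmitic acid change of TSPO in GC2 lay apart from those of the other clones. GC2 changed by -0.147 on the log2 scale, while the other 7 clones changed by 0.48 to 1.03, and the gap to its nearest neighbour was 0.534 of the whole range, above the critical value of 0.526 for 8 values. Its levels were 28.6 units in control and 25.8 units with palmitic acid, and its control library was the highest of the 8. Chance alone flags about 1 in 20 such groups, and 12 sets of 8 clones were examined, the changes and the clone means of 6 members. Only changes were listed as flags, but the clone mean of TSPO in CC1 also lay apart by more than the critical value. That mean was 0.565 on the log2(units + 0.5) scale, against 3.02 in GG1, the next lowest clone. Without GC2 the change of TSPO was 0.77 with the clone as a block (limma, adjusted p = 0.00155).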

How the results depend on the processing

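The clone as a replicate block was the choice that mattered most for palmitic acid: it raised the members called from 0 to 1, TSPO, and the genes called from 6 to 2469, and with clones weighted alike these were 1 and 2745. Without both CC clones 0 genes were called, and with the block, a fit added after the data were seen, 1 member and 2145 genes were called. The changes of TTLL1, TTLL12 and NUP50 then turned to 0.080, 0.053 and -0.026 in both fits. Without the block, genes called were 2 with an offset of 0.1, 12 with no filter, 2 with a mean of at least 5 units, 2 by edgeR and 108 by DESeq2. Library total scaling turned SAMM50 to -0.014. For the interaction, genes called were 0 with an offset of 0.1, 12 with no filter, and 0 with a mean of at least 5 units, by edgeR or by DESeq2. Leaving out 1 library or clone, with or without the block, gave changes of -0.129 to 0.140 for SAMM50, -0.234 to 0.143 for TTLL1, -0.145 to 0.0998 for TTLL12 and -0.0167 to 0.0690 for NUP50, with 0 to 1 members and 0 to 3753 genes called, and 0 to 1 genes for the interaction.

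Between genotypes, GG minus GC of MCAT turned to -0.0011 with library total scaling, -0.0037 by edgeR and -0.11 in palmitic acid libraries alone. GG minus CC turned to 0.036 for SAMM50 in palmitic acid libraries alone and to -0.0011 for TTLL12 in control libraries alone, and GC minus CC turned to -0.0065 for SAMM50 and -0.040 for MCAT in control libraries alone. Genes called were 1 in GG minus GC and 1 in GC minus CC with the clone as a random block, 2 and 2 in the pairs with CC with no filter, and 1 and 1 there in palmitic acid libraries alone. With 1 clone left out, GG minus GC ran from -0.241 to 0.0178 for SAMM50 and from -0.100 to 0.0848 for MCAT. GG minus CC ran from -0.457 to 0.326 for SAMM50, from -0.951 to 2.87 for TSPO and from -0.270 to 0.451 for TTLL12, with 0 to 1 genes called. GC minus CC ran from -0.316 to 0.467 for SAMM50 and from -0.346 to 3.48 for TSPO. The correlation of MCAT with PNPLA3 was -0.154 in control libraries alone. The cause of these changes was not tested. Of 768 settings of single members, 702 kept direction and call, 53 changed direction, 11 gained a call (all TSPO with the block) and 2 lost one (NUP50 between clones). Leaving out a CC clone leaves CC with 1 clone. The genotype and palmitic acid fits then assume that it varies like the other genotypes, and the test between clones drops CC. Depth limits TTLL1 and TSPO in CC1 most.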
